A study of Mus musculus with 15 samples.

Results

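The 10 genes Rsad2, Bst2, Ifi27l2a, Ifi44, Rtp4, Xaf1, Parp9, Parp14, Samhd1 and Eif2ak2, which interferon induces and whose products act against viruses, were examined in the mouse substantia nigra after injection of an adeno-associated virus (AAV) vector. They were taken by symbol from the 36265 genes of the deposited tables, and all 10 had a row with values in both. The tissue came from 8 C57Bl/6J mice in 15 libraries, each made from the nigra of a single side of a single mouse. In 3 mice the vector AAV-hSYN1-miR-181, which carries the microRNA miR-181, was given at a dose of 1.65e+10 vector genomes, and 3 injected and 3 uninjected sides were sequenced. In 5 further mice AAV-hSYN1-GFP was given at 1e+10 vector genomes, and 4 injected and 5 uninjected sides were sequenced, mouse 5 having an uninjected side only. Tissue was taken 3 weeks after injection. hSYN1 is the human synapsin promoter, which drives expression mainly in neurons, and GFP is a green fluorescent protein used as a cargo control. The age and sex of the mice were not given in the sources used here. The control side had no needle and no vehicle that the labels mention, so injection, vector and cargo cannot be told apart within a set. The sets also differed in dose, in sequencer and read length (75 bases for miR-181, 50 for GFP) and in being prepared as separate library sets, none of which can be told apart from the cargo. Each set has a table of its own, normalized apart from the other.

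Type I and type II interferons bind receptors at the cell surface, which activate JAK kinases, and these phosphorylate transcription factors in the cytoplasm. Once in the nucleus, a complex that includes STAT2 and IRF9 binds the interferon-stimulated response element (ISRE) in front of interferon-induced genes. The gamma-activated site (GAS) is the element through which type II interferon acts. In the brain, microglia, astrocytes and neurons can all express such genes, and microglia and infiltrating leukocytes do so strongly. The members act at different steps. Bst2 (tetherin) holds budding particles at the cell surface, Rsad2 (viperin) makes a nucleotide that ends viral RNA chains, Samhd1 hydrolyses deoxynucleotides and Eif2ak2 (PKR) is a kinase that binds double-stranded RNA and halts translation through eIF2alpha. Parp9 and Parp14 belong to the family of ADP-ribosyltransferases. Xaf1 encodes a binding partner of the apoptosis inhibitor XIAP, Rtp4 a receptor transporter protein, Ifi27l2a a small membrane protein and Ifi44 a protein of the cytoplasm.

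Promoter sequences were looked up in RefSeq (GRCm38.p6), whose table held 6 of the 10 members, Rsad2, Bst2, Ifi44, Xaf1, Samhd1 and Eif2ak2, and not Ifi27l2a, Rtp4, Parp9 or Parp14. Each promoter ran from 250 bases before to 50 bases after the gene's start. The core of the ISRE was searched as GAAA, a pair of any bases (NN) and GAAA again, and the GAS as TTCNNNGAA, on both strands. The ISRE core was found in 3 of the 6, against 1131 of all 32851 promoters of the table (3.44%), and the GAS in 3 of the 6, against 2726 (8.30%). The sequences with an ISRE core are shown because that is the element of the pathway described above. They are written 5′ to 3′ on the gene's strand, with every motif match in capitals. Bst2 is shown from 250 bases before its start to the last base before it (chr8:71537473-71537722, minus strand), Rsad2 over the same stretch (chr12:26456453-26456702, minus strand), and Eif2ak2 in a window inside the transcribed part (chr17:78882536-78882563, minus strand).
Bst2: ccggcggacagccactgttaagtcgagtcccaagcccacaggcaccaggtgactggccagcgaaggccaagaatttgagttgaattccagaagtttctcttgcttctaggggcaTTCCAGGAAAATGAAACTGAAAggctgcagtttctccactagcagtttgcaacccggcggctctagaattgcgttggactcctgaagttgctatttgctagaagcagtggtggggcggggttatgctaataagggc
Rsad2: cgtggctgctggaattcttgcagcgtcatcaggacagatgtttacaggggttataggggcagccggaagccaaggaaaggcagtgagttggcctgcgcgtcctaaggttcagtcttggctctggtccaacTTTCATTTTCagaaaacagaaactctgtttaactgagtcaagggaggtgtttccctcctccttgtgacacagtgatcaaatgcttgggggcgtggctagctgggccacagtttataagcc
Eif2ak2: gtccgccggGAAAACGAAAcagaagaga
In Bst2 the capitals join 3 overlapping matches, a GAS at positions -136 to -128 and ISRE cores at -130 to -121 and -124 to -115, counted from the start as the first base after -1. In Rsad2 the ISRE core lay on the opposite strand, at -120 to -111. In Eif2ak2 it lay at 19 to 28 after the start, and a GAS, outside the window shown, at -178 to -170. The Samhd1 promoter held a GAS at -235 to -227. Neither motif, as spelled above, was matched in the windows of Ifi44 and Xaf1. Forms of the ISRE with another spacing or a changed base were not searched, so their absence is not shown. These matches describe letters and were not tested for binding.

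On the side injected with AAV-hSYN1-miR-181, RNA of all 10 members rose. Their median change was 2.82 on the log2 scale, from 1.31 for Samhd1 to 4.23 for Ifi27l2a, where the median of all genes tested was 0.00. On the side injected with AAV-hSYN1-GFP, all 10 had a positive change, and 4 of the 10 were called higher, namely Bst2, Ifi27l2a, Xaf1 and Parp14. The median change of the 10 members was 0.93 there, from 0.41 for Samhd1 to 2.74 for Ifi27l2a. Changes were tested with limma on log2(value + 0.5) over all genes with a mean of at least 1, and a gene was called at a Benjamini-Hochberg adjusted p under 0.05. List genes said below to have risen were called higher. In the miR-181 comparison 678 of 15453 genes were called higher (4.39%) and 230 lower. With values centred on each library's median, that split became 634 higher and 468 lower, and the members called stayed at 10. In the GFP comparison 204 of 15274 genes were called higher (1.34%) and 2 lower. All 10 members reached an unadjusted p under 0.05 in the GFP comparison, as did 1454 of all genes tested. The p-values rest on the spread between libraries of the same side, and this fit takes the sides of a mouse as separate libraries. In bulk tissue, more cells of a type and more RNA per cell cannot be told apart.

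With the mouse kept as a block, which uses that both sides come from the same animal, Rtp4 was also called higher in the GFP comparison (1.21 on the log2 scale, limma adjusted p = 0.0378). The GFP members called then numbered 5, and 122 genes were called higher. The miR-181 calls rested on few libraries. Leaving out injected mouse 1 kept all 10 members, injected mouse 2 kept 6, injected mouse 3 kept 1, uninjected mouse 1 or 2 kept 0, and uninjected mouse 3 kept 1. The calls over all genes moved the same way. Against 678 genes called higher in the main fit, these fits called 1210, 395 and 175 without injected mouse 1, 2 and 3. Without uninjected mouse 1, 2 and 3 they called 129, 113 and 171. No member changed direction in any of these fits, and the highest limma adjusted p over all alternatives ran from 0.0646 for Bst2 to 0.164 for Rsad2. In the GFP comparison Bst2 and Ifi27l2a passed in every alternative run. Parp14 missed the threshold without injected mouse 2 or 4, or without uninjected mouse 2, 3, 4 or 5, with limma adjusted p up to 0.0743, and Xaf1 without injected mouse 2 (0.05005).

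**Figure D1:**
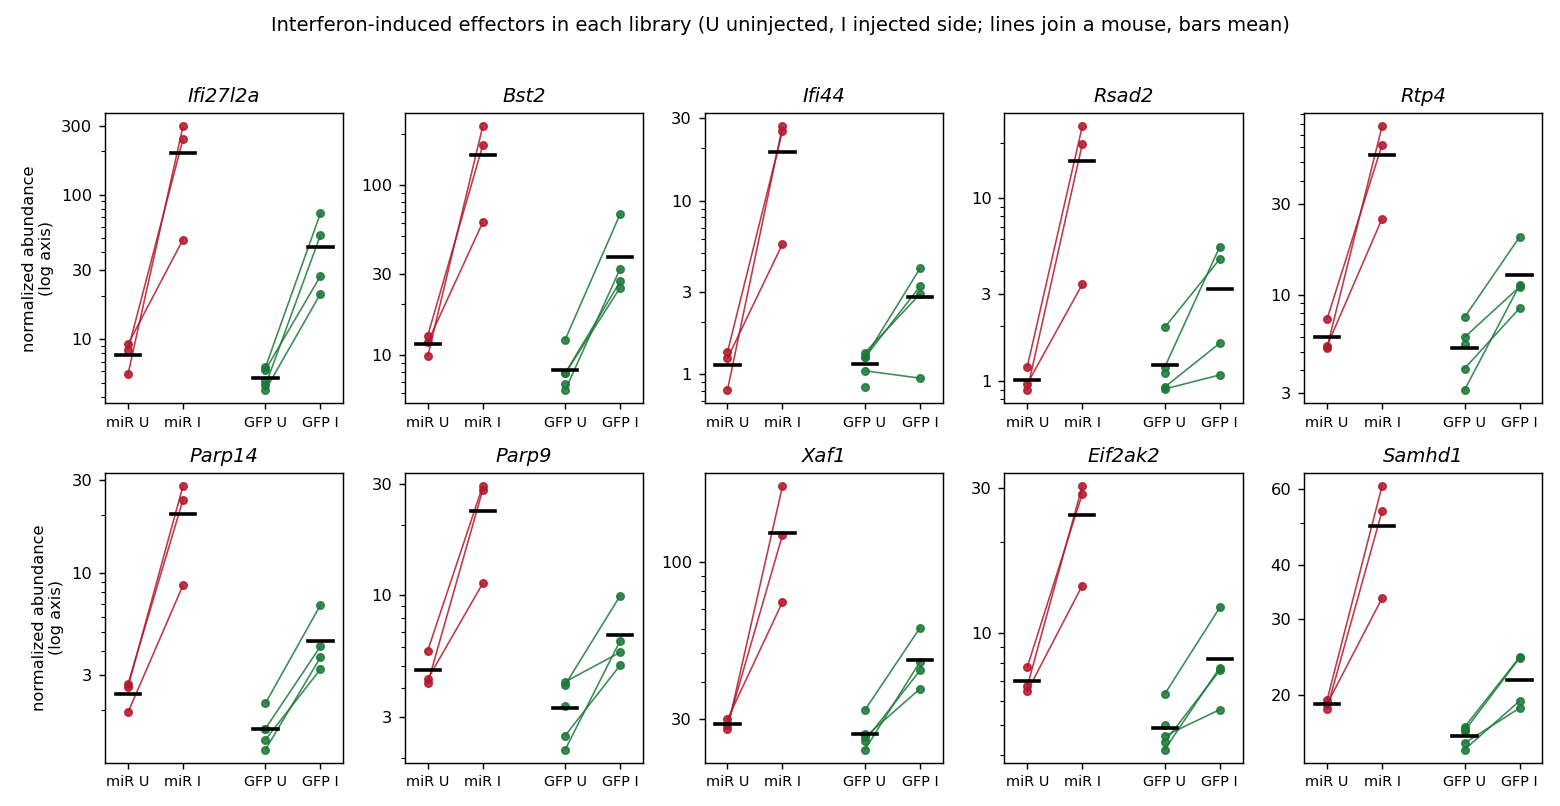
Deposited value of each gene (panels) in every library on a log axis (normalized abundance, TPM divided by a size factor), on uninjected (U) and injected (I) sides, with lines joining the sides of a mouse and bars at the means. In the miR-181 set every injected library lay above every uninjected library for all 10 genes, and in the GFP set for 7.

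Levels below are the deposited values, read as TPM, a measure of transcripts relative to all transcripts of a library, divided by a size factor of each library, and so are per transcript length. The values are given in the order of the mice. Depth per library is unknown. Every injected library was above every uninjected library for 10 of 10 members in the miR-181 set, where 16.0% of the genes tested behaved so, and for 7 of 10 in the GFP set, against 3.29%.

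Bst2 (ENSMUSG00000046718, GRCm38 chr8:71534255-71537456, minus strand) encodes tetherin, and like the other members it is annotated as protein coding. Its level in the uninjected sides of the miR-181 mice was 11.9, 9.87 and 13.0, and in the injected sides 60.5, 222 and 172. The means were 11.6 ± 1.61 (SD, n = 3) and 151 ± 82.6 (SD, n = 3), a 13.0-fold rise. The groups did not overlap, and the injected side of mouse 1 stood well below those of mice 2 and 3. The log2 change was 3.46 ± 0.44 (SE, limma adjusted p = 0.0105). In the GFP mice the uninjected sides of mice 1 to 5 gave 12.4, 7.85, 7.82, 6.25 and 6.75, and the injected sides of mice 1 to 4 gave 67.9, 27.2, 25.0 and 32.4. Mouse 1 was the highest on both sides, and the groups did not overlap. On average the level went from 8.21 ± 2.43 (SD, n = 5) to 38.1 ± 20.1 (SD, n = 4), with a log2 change of 2.07 ± 0.28 (SE; adjusted p = 0.00623 in limma).

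Rsad2, the viperin gene (ENSMUSG00000020641, chr12:26442746-26456452, minus strand), was among the lowest members on the uninjected side. The uninjected sides of the miR-181 mice gave 0.968, 0.895 and 1.20, and the injected sides 3.39, 19.8 and 24.8. The rise in mouse 1 was thus far smaller than in mice 2 and 3, although the groups did not overlap. The average rose from 1.02 ± 0.159 to 16.0 ± 11.2 (SD, n = 3 each), and the log2 change was 3.05 ± 0.66 (SE, limma adjusted p = 0.0454). This was the member nearest the threshold, and with a pseudocount of 1 it missed it (limma adjusted p = 0.0547). In the GFP set the uninjected sides gave 1.19, 0.908, 0.929, 1.97 and 1.12, and the injected sides 5.45, 1.08, 1.62 and 4.66. Mice 1 and 4 were high and mice 2 and 3 lay within the range of the uninjected sides. The log2 change of 0.92 ± 0.39 (SE) had a limma adjusted p of 0.497. Rsad2 starts 12752 bases from Cmpk2, on the opposite strand, which encodes a nucleotide kinase that supplies viperin's substrate. Cmpk2 had a log2 change of 1.17 in the miR-181 comparison, with a limma adjusted p of 0.0845, and of 0.27 in the GFP comparison (0.549).

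Samhd1 (ENSMUSG00000027639, chr2:157097533-157135265, minus strand) had a uniform level on the uninjected sides. These gave 19.0, 19.4 and 18.6 in the miR-181 mice, against 33.5, 61.0 and 53.3 on the injected sides. The groups were clearly apart, with mouse 1 again the lowest of the injected sides. Mean levels were 19.0 ± 0.427 uninjected and 49.2 ± 14.2 injected (SD, n = 3 each), and the log2 change of 1.31 ± 0.20 (SE, limma adjusted p = 0.0182) was the smallest of the 10. In the GFP mice the uninjected sides gave 16.5, 14.9, 15.5, 16.8 and 16.6, and the injected sides 24.3, 19.4, 18.6 and 24.5. Mice 1 and 4 were nearly equal and above mice 2 and 3, and no injected side fell into the uninjected range. The log2 change was 0.41 ± 0.09 (SE) with a limma adjusted p of 0.0711. Without the injected side of mouse 3 it passed, at 0.48 (limma adjusted p = 0.038).

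Eif2ak2 (ENSMUSG00000024079, chr17:78852564-78882573, minus strand), the PKR gene, gave 6.45, 6.70 and 7.75 on the uninjected sides of the miR-181 mice and 14.4, 30.5 and 28.7 on the injected sides. All injected sides were higher, mouse 1 least. The mean went from 6.97 ± 0.692 to 24.5 ± 8.84 (SD, n = 3 each), and the log2 change was 1.68 ± 0.27 (SE, limma adjusted p = 0.0208). In the GFP mice the uninjected sides gave 6.32, 4.61, 4.41, 4.15 and 5.02, and the injected sides 12.2, 5.62, 7.56 and 7.72. The injected side of mouse 2 fell below the uninjected side of mouse 1, so the groups overlapped. The log2 change of 0.66 ± 0.20 (SE) had a limma adjusted p of 0.212. Eif2ak2 overlaps Gm26637 and n-R5s29 on the opposite strand. Of the 31-base words of its transcripts, 6.16% occur in antisense transcripts and 4.08% in other transcripts of its strand. The other kinases of eIF2alpha, Eif2ak1, Eif2ak3 and Eif2ak4, had log2 changes of -0.18, 0.10 and -0.09 in the miR-181 comparison and 0.01, -0.09 and -0.01 in the GFP comparison, and none was called. Of 11 tested genes for eIF2alpha kinases and PKR regulators, limma called 0 in either comparison, with 4 at an unadjusted p under 0.05 in the miR-181 comparison and 0 in the GFP comparison.

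Parp14 (ENSMUSG00000034422, chr16:35832874-35871544, minus strand) encodes a mono-ADP-ribosyltransferase. It gave 1.94, 2.61 and 2.70 on the uninjected sides of the miR-181 mice and 8.68, 28.0 and 23.8 on the injected sides. The injected side of mouse 1 was the lowest of its group and yet above every uninjected side. The average rose from 2.42 ± 0.419 to 20.2 ± 10.2 (SD, n = 3 each), with a log2 change of 2.68 ± 0.41 (SE; adjusted p = 0.0169 in limma). The uninjected sides of the GFP mice gave 2.16, 1.25, 1.41, 1.60 and 1.59, and the injected sides 6.88, 3.71, 3.23 and 4.23. Mouse 1 was the highest on both sides, and the groups did not overlap. The log2 change was 1.22 ± 0.21 (SE, limma adjusted p = 0.0218).

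Parp9 (ENSMUSG00000022906, chr16:35938470-35972605, plus strand) encodes the partner of the ubiquitin ligase DTX3L. It gave 4.38, 4.19 and 5.80 on the uninjected sides of the miR-181 mice and 11.3, 28.3 and 29.5 on the injected sides. Mice 2 and 3 were nearly equal and mouse 1 was lower, with no overlap. Mean levels were 4.79 ± 0.880 uninjected and 23.0 ± 10.2 injected (SD, n = 3 each), with a log2 change of 2.05 ± 0.36 (SE; adjusted p = 0.0246 in limma). In the GFP set the uninjected sides gave 4.14, 2.18, 2.51, 4.26 and 3.36, and the injected sides 9.98, 6.41, 5.02 and 5.71. Mouse 1 stood apart on the injected side and the groups did not overlap. The log2 change of 0.93 ± 0.23 (SE) had a limma adjusted p of 0.112. Parp9 and Dtx3l lie on opposite strands with starts 681 bases apart and overlap, and 8.56% of the 31-base words of Parp9 transcripts occur in antisense transcripts. Whether the authors' assignment used strand was not given in the sources used here, so reads of the overlap cannot be assigned with certainty.

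Of 14 tested genes of the PARP family and Dtx3l, 5 rose in the miR-181 comparison, namely Parp12 (1.98 on the log2 scale), Dtx3l (1.87), Parp3 (1.21), Parp10 (2.11) and Parp1 (0.29), and 0 fell. Their limma adjusted p lay between 0.0139 and 0.0368. Parp3 missed the threshold with the mouse as a block (limma adjusted p = 0.0509). In the GFP comparison Parp3 rose (0.69, limma adjusted p = 0.0044) and no other gene of the list passed. Dtx3l had a change of 0.56 (limma adjusted p = 0.275) and Parp12 of 0.71 (0.132) there.

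Xaf1 (ENSMUSG00000040483, chr11:72301629-72313733, plus strand) had the highest uninjected level of the 10 members. The uninjected sides gave 30.0, 27.9 and 28.6 in the miR-181 mice, and the injected sides 73.7, 179 and 123. Mouse 2 was the highest and mouse 1 the lowest of the injected sides. On average the level went from 28.8 ± 1.06 to 125 ± 52.8 (SD, n = 3 each), with a log2 change of 2.01 ± 0.28 (SE; adjusted p = 0.0139 in limma). In the GFP mice the uninjected sides gave 32.2, 23.8, 25.5, 26.2 and 26.8, and the injected sides 60.5, 46.7, 43.6 and 37.9. Mouse 1 was the highest on both sides, without overlap. The log2 change was 0.79 ± 0.13 (SE, limma adjusted p = 0.015). Of 5 tested genes for XIAP and its partners, Birc3, an inhibitor of apoptosis, was called higher in the miR-181 comparison (1.19, limma adjusted p = 0.0398), and with the mouse as a block it was not (0.0520). None passed in the GFP comparison, and 0 had an unadjusted p under 0.05. Xiap itself had changes of -0.10 and -0.08.

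Rtp4 (ENSMUSG00000033355, chr16:23520291-23614222, plus strand) gave 5.35, 5.24 and 7.40 on the uninjected sides of the miR-181 mice and 25.2, 77.4 and 61.8 on the injected sides. The order of the injected sides, mouse 2 over 3 over 1, was that of Bst2. The mean went from 6.00 ± 1.22 to 54.8 ± 26.8 (SD, n = 3 each), with a log2 change of 2.96 ± 0.39 (SE; adjusted p = 0.0115 in limma). The uninjected sides of the GFP mice gave 7.58, 4.06, 3.13, 5.95 and 5.48, and the injected sides 20.1, 8.46, 11.2 and 11.0. Mouse 1 was the highest on both sides, and the lowest injected side was just above the highest uninjected side. The log2 change of 1.18 ± 0.27 (SE) had a limma adjusted p of 0.0804, and passed without the uninjected side of mouse 1 (1.32, 0.0472). The related Rtp1, Rtp2 and Rtp3 lay below the minimum mean in both tables. Rtp4 overlaps Gm45338, and 12.5% of its 31-base words occur in other transcripts on the same strand, so the split of reads between them is uncertain.

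Ifi27l2a (ENSMUSG00000079017, chr12:103442167-103443680, minus strand) had the largest log2 change of the 10 members in both sets. The uninjected sides of the miR-181 mice gave 9.21, 5.71 and 8.42, and the injected sides 48.9, 297 and 241. Mouse 1 stood far below mice 2 and 3, and all were above the uninjected sides. Mean levels were 7.78 ± 1.84 uninjected and 196 ± 130 injected (SD, n = 3 each), a 25.2-fold rise with a log2 change of 4.23 ± 0.64 (SE; adjusted p = 0.0166 in limma). In the GFP set the uninjected sides gave 6.39, 4.45, 4.80, 6.14 and 5.18, and the injected sides 74.3, 20.6, 52.6 and 27.3. Mice 1 and 3 were high and mice 2 and 4 lower, all clear of the uninjected sides. On average the level went from 5.39 ± 0.844 (SD, n = 5) to 43.7 ± 24.6 (SD, n = 4), with a log2 change of 2.74 ± 0.32 (SE; adjusted p = 0.00238 in limma). Its neighbour Ifi27, which starts 9469 bases away on the opposite strand, had a mean level of 90.1 on the uninjected sides of the miR-181 mice, against 7.78 for Ifi27l2a. Ifi27 rose to a mean of 310.2 on the injected sides (1.70 on the log2 scale, limma adjusted p = 0.0166), where Ifi27l2a had 196. In the GFP set Ifi27 rose from 96.9 to 178 (0.88). The paralog Ifi27l2b, at means of 0.248 and 0.231 in the miR-181 set, was below the minimum, and 6.00% of the 31-base words of Ifi27l2a occur in other transcripts of its strand.

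Ifi44 (ENSMUSG00000028037, chr3:151730922-151749960, minus strand) gave 1.24, 0.813 and 1.35 on the uninjected sides of the miR-181 mice and 5.63, 26.7 and 25.1 on the injected sides. Mice 2 and 3 were nearly equal, and mouse 1 was lower by a wide margin. The average rose from 1.13 ± 0.281 to 19.2 ± 11.7 (SD, n = 3 each), with a log2 change of 3.33 ± 0.55 (SE; adjusted p = 0.022 in limma). The uninjected sides of the GFP mice gave 1.25, 1.05, 1.34, 1.25 and 0.845, and the injected sides 4.07, 0.952, 2.90 and 3.22. Mouse 2 stayed within the uninjected range, while the other mice were above it. The log2 change of 0.89 ± 0.31 (SE) had a limma adjusted p of 0.334, and without the injected side of mouse 2 it was 1.24 (0.022).

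**Figure D2:**
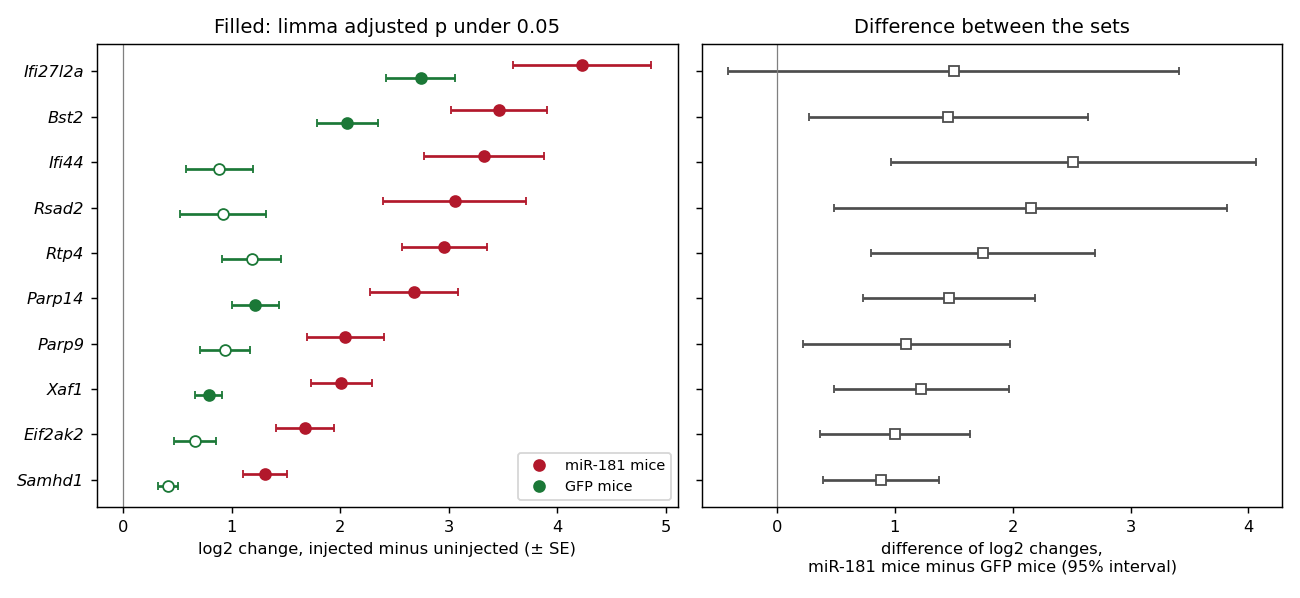
Left, log2 changes of the 10 genes, injected minus uninjected, with standard errors as bars and filled points where limma gave an adjusted p under 0.05; right, the miR-181 change minus the GFP change with its 95% interval. Changes ran from 1.31 for Samhd1 to 4.23 for Ifi27l2a in the miR-181 set and from 0.41 to 2.74 for the same genes in the GFP set, and only the interval of Ifi27l2a on the right spans 0.

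The difference between the sets was tested on the log2 change of each mouse, 3 miR-181 mice against 4 GFP mice. The estimate was larger in the miR-181 set for all 10 members, with a median difference of 1.45. With limma, 0 of 10 members passed after adjustment, and 9 of 10, all but Ifi27l2a, had an unadjusted p under 0.05, as did 2169 of the 15437 genes tested. Over all genes 3 passed in either direction (0.0194%). These 3, named after their values were seen, were Fam92b (1.29) and Gm8430 (4.32), higher in the miR-181 set, and Gm21830 (-3.45), lower. The member with the largest estimate was Ifi44, at 2.51 (95% interval 0.96 to 4.07, limma adjusted p = 0.222). The smallest was Samhd1, at 0.88 (0.39 to 1.37, limma adjusted p = 0.207). For Rtp4 the difference was 1.75 (0.80 to 2.69) and for Rsad2 2.15 (0.48 to 3.82). For Parp14, Bst2, Xaf1, Parp9 and Eif2ak2 it was 1.46, 1.45, 1.22, 1.10 and 1.00, with intervals that did not reach 0. Ifi27l2a had a difference of 1.50 with an interval from -0.42 to 3.41. Without miR-181 mouse 1, Parp14 (1.84, limma adjusted p = 0.0272) and Samhd1 (1.14, 0.0335) passed, and 71 genes did over the whole table. Vector, dose and library set cannot be told apart in this difference.

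**Figure D3:**
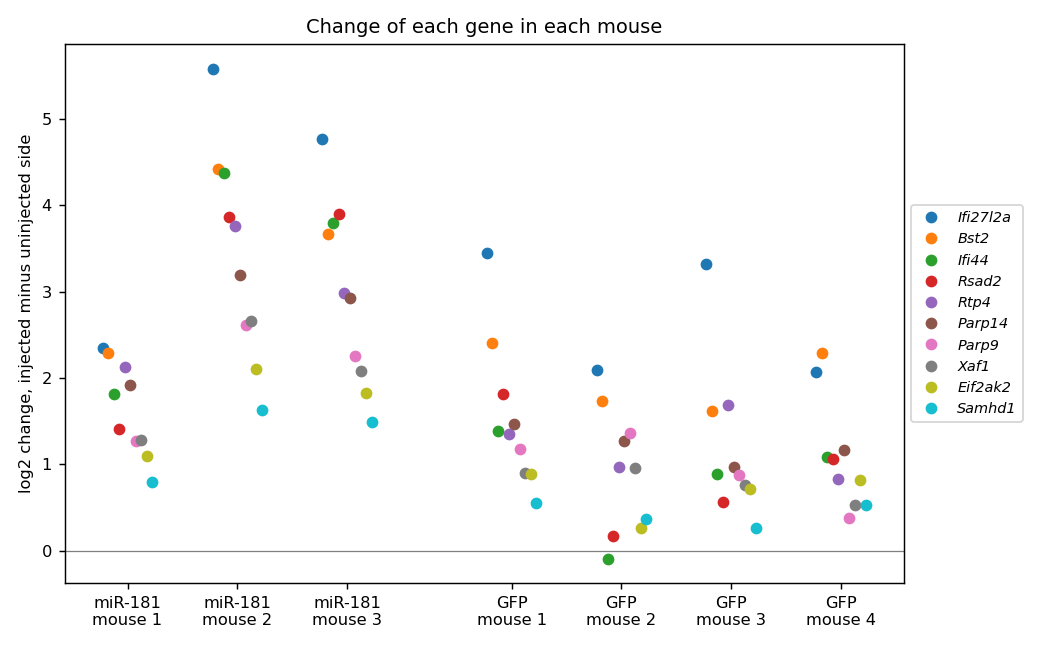
Each point is the log2 change of 1 gene in 1 mouse, injected minus uninjected side, with the genes in colour and a line at 0. The points of miR-181 mouse 1, between 0.80 and 2.35, lie beside those of GFP mouse 1, between 0.55 and 3.44, and gene by gene below those of miR-181 mice 2 and 3.

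The mice of a set were not alike. The median change of the 10 members was 1.61, 3.48 and 2.95 in miR-181 mice 1, 2 and 3, and 1.37, 0.97, 0.88 and 0.95 in GFP mice 1 to 4. All 10 were higher on the injected side in every mouse except GFP mouse 2, where Ifi44 had a change of -0.09. MiR-181 mouse 1 was thus nearer to GFP mouse 1 than to miR-181 mice 2 and 3. On the injected side mouse 1 was the lowest miR-181 library for all 10 members, and mouse 2 the highest for 8, with mouse 3 the highest for Rsad2 and Parp9. In the GFP set the injected side of mouse 1 was the highest for 9 members, all but Samhd1. The uninjected side of that mouse was the highest of its group for 6. Every miR-181 mouse changed more than every GFP mouse for 6 of 10 members (Ifi44, Rtp4, Xaf1, Parp14, Samhd1 and Eif2ak2), against 6.94% of the genes tested. For Ifi27l2a, Bst2, Rsad2 and Parp9 the changes of miR-181 mouse 1 lay within the GFP range.

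The members moved together across libraries. Each value was taken as log2(value + 0.5) less the mean of the uninjected libraries of its own table, over 15 libraries that came from 2 tables and, in pairs, an animal. The 45 pairs of members had Pearson correlations from 0.887 (Ifi27l2a and Rsad2) to 0.984 (Parp14 and Rtp4), with a median of 0.957. Against the mean of the other members, Parp14 had the highest correlation (0.992) and Rsad2 the lowest (0.947). Injected and uninjected sides differ in all these genes, so the correlations mostly carry that difference. Of 14814 genes tested in both tables, the 5 whose profile was most like the mean of the members were Oasl2 (r = 0.996), Usp18 (0.994), Ifit1 (0.994), Oas1a (0.992) and Rnf213 (0.990). That mean also mostly carries the difference between sides. Genes picked by it from the same libraries therefore differ between sides too, and their values only describe them. In the miR-181 set these 5 genes rose by 4.27, 3.45, 3.40, 3.36 and 2.52 on the log2 scale, with limma adjusted p between 0.00841 and 0.023. In the GFP set the changes were 1.73, 1.66, 1.49, 1.40 and 1.06. Oasl2, Usp18 and Oas1a passed there, and Ifit1 (limma adjusted p = 0.0562) and Rnf213 (0.0741) did not. With the mouse as a block Rnf213 passed (limma adjusted p = 0.0317) and Oas1a did not (0.0565).

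Genes of the steps before the members were looked at from lists. None of the 9 listed interferon genes reached the minimum mean in either table. Their summed level was between 0.42 and 1.73 on the injected sides of the miR-181 mice, most of it Ifng (mean 0.865), the gene of type II interferon, and Ifnb1 had a mean of 0.0885. On the injected sides of the GFP mice all 9 were listed at 0. Of 5 tested receptor genes, Ifngr1 (0.44 on the log2 scale, limma adjusted p = 0.0264) and Il10rb (0.60, 0.0383) rose in the miR-181 comparison. The type I receptor genes Ifnar1 (0.24) and Ifnar2 (0.49) lay just outside, each with a limma adjusted p of 0.0502. In all, 4 of the 5 had an unadjusted p under 0.05 there. Limma called 0 of the 5 in the GFP comparison, with 2 at an unadjusted p under 0.05. Of 8 tested signal transducers 5 rose in the miR-181 comparison. Among them were Irf1 (2.72), Stat2 (1.86), Irf7 (4.05) and Irf9 (2.07), with limma adjusted p between 0.0040 and 0.0153. In the GFP comparison 3 of the 8 rose, among them Irf1 (1.00, limma adjusted p = 0.0376) and Irf9 (0.76, 0.0174). Irf7 had a change of 1.69 (limma adjusted p = 0.0504) and Stat2 of 0.56 (0.164). Of 5 tested inhibitors of the pathway, Ptpn6 (2.15, limma adjusted p = 0.0102) and Usp18 (3.45, 0.0215), which removes ISG15 from proteins, rose in the miR-181 comparison, and Usp18 in the GFP comparison (1.66, 0.0133).

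**Figure D4:**
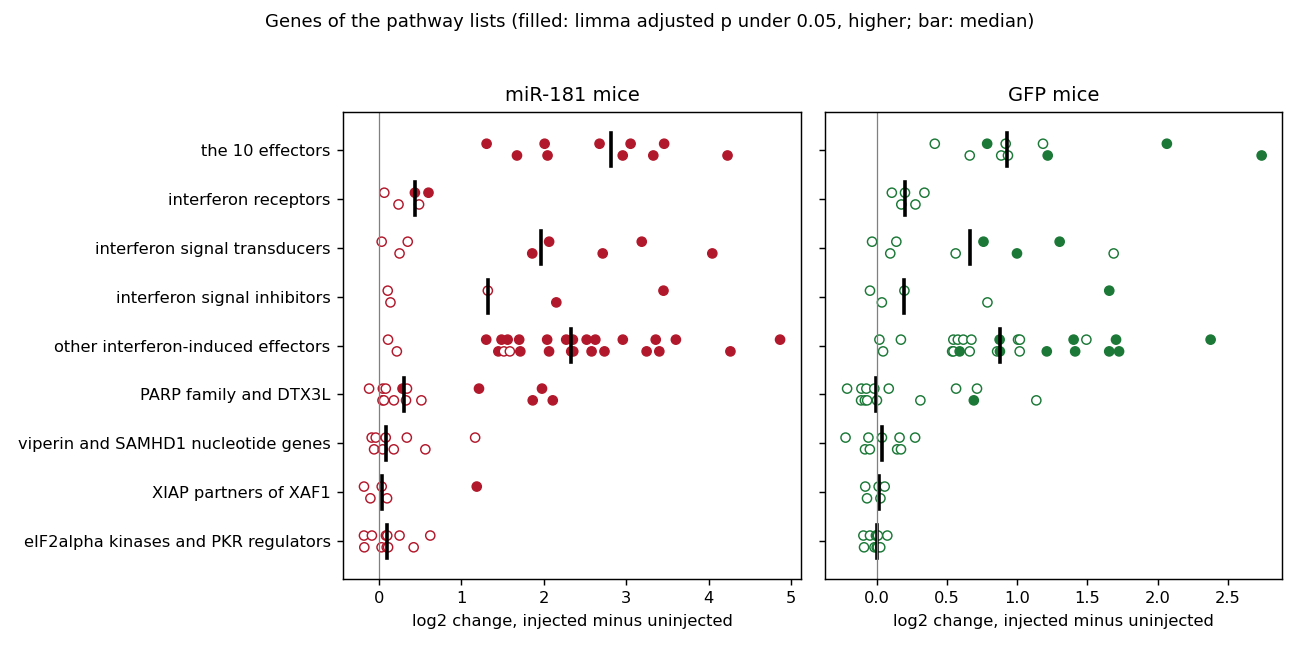
Log2 changes of single tested genes (points), injected minus uninjected, by list, with a bar at the list's median, filled points for genes that limma called higher, and separate axis ranges for the miR-181 (left) and GFP (right) mice. In the miR-181 set 23 of 27 other effectors passed, and in the GFP set 10 of 25.

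Of the other interferon-induced effectors, 23 of 27 tested rose in the miR-181 comparison, with a median change of 2.33 over all 27, and 10 of 25 rose in the GFP comparison, with a median of 0.87. The 6 with the smallest adjusted p in the miR-181 comparison were Zbp1 (4.87), a sensor of Z-form nucleic acids, Oasl2 (4.27), Ifi27 (1.70), Ifit3 (3.60), Oas1a (3.36), a synthetase of oligoadenylates, and Ifi35 (2.27). Their limma adjusted p lay between 0.0040 and 0.0187. In the GFP comparison Zbp1 (2.38), Oasl2 (1.73), Ifi27 (0.88), Ifit3 (1.70) and Oas1a (1.40) passed, and Ifi35 (0.86) had a limma adjusted p of 0.0677. With the mouse as a block the GFP count of these effectors fell from 10 to 5, and Ifit3 (limma adjusted p = 0.0597) and Oas1a (0.0565) were no longer called. Of 9 tested genes for deoxynucleotides and the substrate of viperin limma called 0 in either set, with 3 at an unadjusted p under 0.05 in the miR-181 set and 0 in the GFP set. Among them Rrm2, a subunit of ribonucleotide reductase, had changes of 0.56 and -0.08. Over all pathway lists 38 distinct genes rose in the miR-181 comparison and 15 in the GFP comparison, and 0 fell. The first number ranged from 3, without the uninjected side of mouse 1 or of mouse 2, to 48, without the injected side of mouse 1, and it was 19, 6 and 4 without injected mouse 2, injected mouse 3 and uninjected mouse 3. The GFP number ranged from 4, without the uninjected side of mouse 3, to 17, without that of mouse 1. It was 9, 10, 14 and 5 without the injected sides of mice 1 to 4 and 7, 10 and 5 without the uninjected sides of mice 2, 4 and 5. Other settings moved these numbers too. The miR-181 number was 7 with no filter on low values and 17 with no intensity trend, and the GFP number was 8 with no filter, 10 with no intensity trend and 10 with the mouse block. Irf1 and Zbp1 kept their miR-181 call, and Ifi27, Parp3 and Usp18 their GFP call, in every alternative run.

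Summed levels of immune cell markers were higher on the injected sides in both sets, though their order over the mice did not always follow the members. A marker was tested where its mean over the libraries of both sides reached 1, so high injected sides alone could bring a low marker in. Calls of markers let in that way are no separate support. For lymphocytes and monocytes the numbers tested differed between the sets, so their shares called cannot be compared. The summed level of 7 microglial markers was 387 to 407 on the uninjected sides of the miR-181 mice and 817, 1360 and 995 on the injected sides, and 6 of the 7 passed. In the GFP mice it was 292 to 387 on the uninjected sides and 669, 584, 524 and 606 on the injected sides of mice 1 to 4, and 5 of 7 passed. GFP mouse 1, the highest injected side for 9 members, thus also had the highest microglial sum. For B and plasma cells the sum was 50.7 to 91.2 and then 788, 4570 and 3420 in miR-181 mice 1 to 3, with 4 of 5 tested markers called. The order of these mice, 2 over 3 over 1, was that of most members. It was also that of the sums for microglia, T and NK cells, astrocytes and endothelial cells, and not for monocytes and macrophages. In GFP mice the order of the B and plasma cell sums differed from that of the members. The injected sides gave 63.8, 1403, 185 and 441 in mice 1 to 4, against 3.01 to 25.5 on the uninjected sides. Of the 7 listed markers only 3 reached the minimum mean there, and 2 of these were called. The sums are unweighted, so in the GFP mice they rest mostly on those few genes. GFP mouse 1 thus had the lowest sum of B and plasma cell markers of the injected sides, and mouse 2, the lowest for 5 members, the highest.

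For T and NK cells the sum went from between 12.2 and 17.4 to 36.4, 128 and 56.2 in the miR-181 mice, with 5 of 7 markers called. In the GFP mice it went from between 9.23 and 19.9 to 25.0, 28.2, 24.1 and 28.5 in mice 1 to 4. Of 3 tested markers 0 were called there, with 2 at an unadjusted p under 0.05. For monocytes and macrophages it went from between 7.65 and 10.8 to 16.9, 57.7 and 67.6 in the miR-181 mice, with 2 of 5 tested called. In the GFP mice it went from between 4.09 and 6.51 to 15.6, 20.2, 10.3 and 12.3 in mice 1 to 4. Of 4 tested markers 0 were called there, with 2 at an unadjusted p under 0.05. In neither sum was GFP mouse 1 the highest injected side, as it was for most members. The monocyte marker Plac8 was listed at 0 on all uninjected sides of the GFP mice. Of the 6 astrocyte markers 2 were called in the miR-181 set and 1 in the GFP set, Gfap in both. Their sum was 1572 to 1943 on the injected sides of the miR-181 mice against 1205 to 1330 on the uninjected sides. In the GFP mice it was 1077 to 1276 against 914 to 1053. The median log2 change of the list was only 0.12 and 0.08. Of 5 general neuronal markers limma called 0 in either set, with 4 at an unadjusted p under 0.05 in the miR-181 set and 1 in the GFP set. Their sum was 3021, 2523 and 2770 on the injected sides of the miR-181 mice against 3146 to 3285 on the uninjected sides. The part of any of these cells in the members' changes was not tested.

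**Figure D5:**
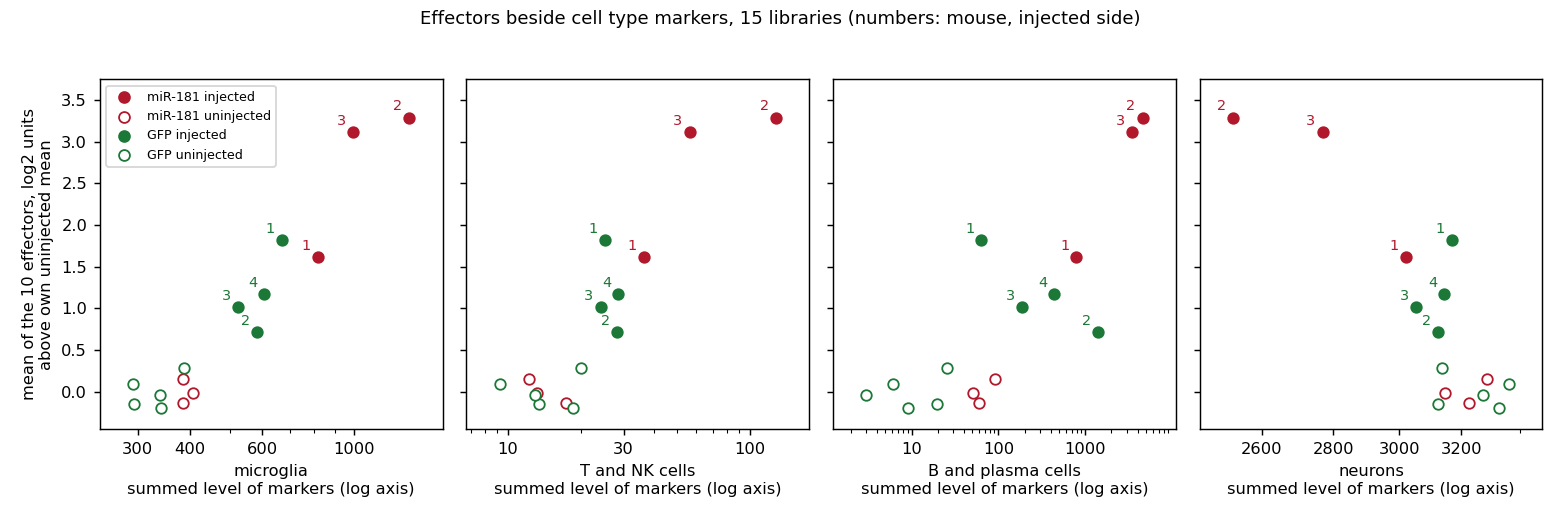
Mean of the 10 members in each library, in log2 units above the uninjected mean of its set (vertical), against the summed level of microglial, T and NK cell, B and plasma cell and neuronal markers (horizontal, log axis), with mouse numbers on injected sides (filled). GFP mouse 1, at 1.82, stands above miR-181 mouse 1, at 1.62, and miR-181 mouse 2 is the highest at 3.29. The uninjected side of GFP mouse 1 was itself at 0.28. Against each mouse's own uninjected side the order reverses, with median changes of 1.37 in GFP mouse 1 and 1.61 in miR-181 mouse 1.

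Markers of the nigra's dopamine neurons were present in every library, with sums from 531 to 1900. In miR-181 mouse 2, whose injected side was the highest for 8 members, that sum was 1192 on the uninjected and 531 on the injected side, while it was 1198 and 1211 in mouse 1 and 833 and 834 in mouse 3. The part of this in the members' changes was not tested. Genes at a value of 1 or more numbered 15022 to 15563 per library. Both libraries of GFP mouse 1 held transcripts of the pituitary, with marker sums of 49978 on the uninjected and 2442 on the injected side, against at most 16.9 elsewhere. Without both libraries of that mouse the GFP members called were 4, and 141 genes were called higher. Serotonin neuron markers summed to 37.8 to 92.7 in the miR-181 libraries and 0.342 to 1.53 in the GFP libraries, which do not overlap, and their part in the difference between the sets was not tested.

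In the authors' deposited table for miR-181, a q under 0.05 with a positive coefficient was given to all 10 members by the Wald test, where 6.55% of genes had it. By the likelihood ratio test of the authors' deposited table it was given to 9, against 4.04% of genes, with Rsad2 just outside (q = 0.0501). In the authors' deposited table for GFP, 7 members passed the Wald test, against 1.96% of genes, and Rsad2 (q = 0.596), Ifi44 (0.265) and Eif2ak2 (0.1) did not. In the same authors' deposited table, 4 passed the likelihood ratio test, against 1.16%, and these were Bst2, Ifi27l2a, Xaf1 and Parp14, the 4 called here.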

How the data were processed

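RNA from nigral tissue was selected for polyA and sequenced with strand kept in 15 libraries, and RIN values were above 7.5, per the labels' protocols. The submitters' processing notes name kallisto 0.43.1, sleuth 0.30.0 and the build GRCm38. How transcripts were combined into genes, and whether strand was used, is not given in the sources used here. The authors deposited a normalized abundance per gene and library, a signal read from its sums as TPM divided by a size factor. This was inferred from sums that were close to those of TPM and yet differed between libraries. The planned test did not depend on this reading. The authors' deposited coefficients were read as a natural log, and only their sign was used. The authors also deposited p-values and q-values of a pair of tests, which were taken to be Wald and likelihood ratio tests from the form of the columns, as the file headers do not name them.

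Each table had 56305 rows, 36660 with values. Leaving out 395 rows that repeat the symbol and values of another row left 36265 genes, with 0 repeated identifiers and 0 value columns outside the 15 libraries. Tests used limma (version 3.58.1, R 4.3.3) and its intensity trend on log2(value + 0.5). Genes needed a mean of 1 or more, with Benjamini-Hochberg adjustment over all genes tested at 0.05. That mean was taken over both sides together, so a gene low on the uninjected sides could enter through the injected sides. The fit was run on simulated data, with normal noise of the uninjected libraries' spread on both sides and no mouse effect. In the miR-181 set every member spread more on the injected sides. For Bst2, log2(value + 0.5) ran from 5.93 to 7.80 there and from 3.37 to 3.76 on the uninjected sides. The simulation did not cover such unequal spread. For low genes this scale gives too small a change. The tables were fitted separately and without a mouse block. The difference between the sets used per-mouse changes without the trend, and leaves out GFP mouse 5. Per the labels, a mouse number stands for a single animal, and it pairs the injected with the uninjected library. The correlation of the sides' deviations from their group means was 0.140 to 0.257 over the 3 miR-181 pairs and 0.0177 to 0.192 over the 4 GFP pairs. Depth per library is unknown, so values carry no counting interval.

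The members, the pathway and marker lists and the tests were chosen with earlier results of these data known. All 10 members are named, with the genes of each list that passed (at most 6, by adjusted p in the miR-181 comparison), partners and paralogs of members, and the 5 most alike genes. Ifnar1 and Ifnar2, which did not pass, are named for their values near the threshold. A list gene that shares its symbol with other identifiers is not named. A listed signal transducer is counted but not reported here by name. Positions are from GENCODE M21 (GRCm38) and promoters from RefSeq (GRCm38.p6). Alternatives were other pseudocounts and filters, no trend, median centring, quantile normalization, a mouse block and leaving out libraries. Keeping all rows was added after seeing the data. Figures were drawn with matplotlib 3.10.9 and numpy 2.4.6 in Python 3.11.15.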

Additional observations from a re-analysis of the deposited data

Results flagged for a closer look

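In 3 of the 20 groups of 4 or 5 libraries tested, a single library lay far from the others by Dixon's criterion. The criterion was applied to the deposited values, not to the log2 values of the fits. Chance gives this in about 1 of 20 independent groups with normal values. These groups share libraries and hold members that moved together, so the count cannot be set against that rate. Rsad2 had a level of 1.97 on the uninjected side of GFP mouse 4, where the next highest was 1.19. Bst2 had 67.9 on the injected side of GFP mouse 1, where the next highest was 32.4, and 12.4 on the uninjected side of the same mouse, where the next was 7.85. Both libraries of that mouse also held pituitary transcripts, whose part in these values was not tested.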

How the results depend on the processing

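Over all alternatives run, 0 member values changed direction. In the miR-181 comparison 96 member values stayed past the threshold and 54 did not. The 10 members called fell to 3 with no filter on low values and to 6 with no intensity trend, and the 678 genes called higher fell to 268 and 395. Leaving out single libraries gave 0 to 10 members and 113 to 1210 genes. In the GFP comparison the 204 genes called higher became 135 with a mean of at least 5, 122 with the replicate block, which pairs the sides of a mouse, and 108 without mouse 5. Leaving out single libraries gave 3 to 5 members and 108 to 251 genes. With the mouse block the miR-181 members stayed at 10 and the GFP members became 5, and no member call other than that of Rtp4 changed. For the difference between the sets, the 3 genes called became 0 with a pseudocount of 1, 0 with no filter, 1 with a mean of at least 5, 1 with an intensity trend and 21 with no replicate block. Leaving out single mice gave 0 to 71 genes and 0 to 2 members, the 2 being Parp14 and Samhd1 without miR-181 mouse 1. The causes of these shifts were not tested. Quantile normalization kept the counts near those reported, at 10 members and 574 genes for miR-181, 4 and 184 for GFP, and 0 and 3 for the difference. Keeping the first row of each identifier could not be applied, since 0 identifiers repeat, and keeping all rows changed no count of members. With 3 libraries a side for miR-181, and 4 injected and 5 uninjected for GFP, calls near the threshold rest on single libraries. Depth, which is unknown, limits what can be said of the lowest members, Rsad2 and Ifi44.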
